A study of Mus musculus with 24 samples.

Results

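The cDKO and control libraries taken at the onset of the chase (0 min) were compared, 3 against 3, in read abundance and in metabolic labelling per gene. These 6 libraries, of 24 in the series, were chosen by their labelled chase time alone. The cells were preleukemic mouse cells, grown from c-Kit+ fetal liver cells of C57BL/6 embryos that had received Meis1 and Hoxa9 by retrovirus and had been replated serially in methylcellulose. Tut4/7 Vav-iCre cDKO cells carried Tut4 fl/fl, Tut7 fl/fl and Vav-iCre, which deletes floxed alleles in blood-forming cells, while the control cells came from Tut4 fl/fl, Tut7 fl/fl littermates without the Cre. Both genotypes therefore carried the floxed alleles and both retroviral genes, and 12 h in medium holding 2.9 µM of the uridine analogue 4SU (4-thiouridine) preceded collection in each. The labels call each chase time a batch, so the 6 libraries share the batch named for 0 min. By the study's methods the replicates of a genotype were biological and came from independent embryos or animals.

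TUT4 and TUT7 are terminal uridylyltransferases: they add uridines to RNA 3′ ends, which marks mRNAs with short poly(A) tails for decay and, with LIN28, precursors of the let-7 microRNAs. In SLAM-seq, cells take up 4SU and build it into new RNA, iodoacetamide alkylates it, and the reverse transcriptase then reads it as C in place of T. A T-to-C conversion in a read thus marks RNA made during the labelling, and the share of T positions that are converted reflects how much of a transcript is new and how much 4SU reached it. HOXA9 and its cofactor MEIS1 hold myeloid progenitors in a self-renewing state, and neutrophil granule and monocyte genes are switched on as such cells mature. At chase onset no RNA has yet been chased, so abundance and labelling are those of cells in 4SU medium.

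Each library was a 3′ end library in which the files count reads, covered T positions and conversions per 3′UTR interval of the mm10 mouse genome. The 6 libraries held 9601608 to 13405929 mapped reads, of which 4380235 to 6592394 lay in the 3′UTR intervals and covered 89786358 to 133802866 T positions. The share of reads in 3′UTRs was 48.7 to 49.4% in the control and 44.2 to 45.6% in the cDKO libraries. Abundance is given as CPM, counts scaled to the library's total of 3′UTR reads, and a gene was called when its Benjamini-Hochberg adjusted p from edgeR's quasi-likelihood test, taken over all genes tested, was under 0.05. In bulk RNA such as this, fewer cells of a type and less RNA per cell cannot be told apart.

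The 3 cDKO libraries were less alike than the 3 control libraries. Xist, the RNA that silences an X chromosome in female cells, stood at 2020, 54.5 and 2235 CPM in cDKO replicates 1, 2 and 3 and at 197, 489 and 390 CPM in the controls. The groups overlapped, and Xist was not called (log2 change 2, edgeR adjusted p = 0.209). Ddx3y, an RNA helicase gene of the Y chromosome, stood at 18.3, 120 and 4.16 CPM in the cDKO and at 0 in every control library, which allows up to 0.176 CPM over the pooled control reads. Its higher call was lost without any control library (edgeR adjusted p = 0.0784 to 0.0823). The cDKO libraries thus differed among themselves in genes of both sex chromosomes, and Ddx3y was read in the cDKO libraries alone. The part of this in the results below was not tested.

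The blood cell markers were present in all 6 libraries, with 1 exception. Ptprc, which encodes the leukocyte antigen CD45, was read at 219, 233 and 231 CPM in the control and 179, 109 and 175 CPM in the cDKO (edgeR adjusted p = 0.0525). Vav1, whose promoter the Cre carries, was read at 70.3 to 81.0 and 69.0 to 91.1 CPM (edgeR adjusted p = 0.648). The gate gene Kit, the receptor for stem cell factor, stood at 71.4, 73.3 and 86.0 CPM against 60.0, 27.2 and 42.1 CPM, a difference that missed the threshold (log2 change -0.83, edgeR adjusted p = 0.0516). Endogenous Meis1 3′UTR reads were the exception, at 0 in each control library and at 1.37, 1.24 and 1.75 CPM in the cDKO, too few for the test. Of 18 markers of liver, stromal, endothelial and epithelial cells, 11 had no read, and the summed level of all 18 was 29.7 to 32.0 CPM in the control and 79.2 to 142 CPM in the cDKO. Of 22 lymphoid markers, 12 had no read, and their sum was 14.5 to 24.97 CPM in the control and 12.6 to 18.5 CPM in the cDKO. The reads that remain in the deleted genes came to 68.1, 75.2 and 86.3 CPM in the control and 17.8, 30.2 and 18.6 CPM in the cDKO for Tut4. For Tut7 they were 40.3, 34.6 and 45.1 CPM against 16.7, 19.2 and 20.2 CPM. Both fell (edgeR adjusted p = 0.00118 and 0.00388) by reads at their 3′ ends. Where the floxed exons lie relative to these reads is not given in the sources used here.

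Of 10186 genes tested, 684 were higher in the cDKO (6.72%) and 676 were lower (6.64%), so the calls were even in direction. Large changes were more often upward: 140 genes rose and 76 fell by more than 3 on the log2 scale, while 298 rose and 373 fell by less than 1. But 36 genes called higher had no control read and 11 called lower had no cDKO read, so their sizes are not fixed by the counts. With at least 10 reads in each library, 526 called genes were higher and 549 lower. No gene called lower had overlapping groups, and 8 genes called higher did. Over all tested genes, called or not, every cDKO library was above every control library in 15.4% and below in 18%. The count moved with the libraries in the fit: it was 700, 633 and 689 genes without control replicate 1, 2 or 3, and 1010, 2223 and 1437 genes without cDKO replicate 1, 2 or 3. Of 128 called genes that were named and refitted, 71 stayed called whichever library was left out, and the other 57 lost the call without some control library. Between 625 and 680 of the genes called without a control library were among the 1360, in the same direction.

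The 6 most abundant genes by mean CPM, Actb, Ptma, H2ac23, Gpx1, Wdr89 and Malat1, were not called. Actb, cytoplasmic actin, stood at 9758, 9420 and 9680 CPM in the control and 9083, 9813 and 9910 CPM in the cDKO (log2 change 0.01 ± 0.09 SE). Malat1, a nuclear noncoding RNA, stood at 4520, 5173 and 4533 CPM against 4558, 3946 and 4874 CPM. The groups overlapped for both.

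Among called genes with at least 10 reads in every library, the 10 that rose most were Ikzf2, S100a6, Hgf, Calcrl, Gata2, Csn2, Slc24a3, Vcam1, Oaf and Neto2. Ikzf2, which encodes the Ikaros family transcription factor Helios (3′UTR at chr1:69531207-69538767 on the minus strand, mm10), was read at 2.52, 9.96 and 12.1 CPM in the control and at 428, 422 and 574 CPM in the cDKO. Its log2 change of 5.83 ± 0.37 SE (edgeR adjusted p = 4.37e-05) was the largest of the 10. Gata2, a transcription factor of stem cells, mast cells and megakaryocytes (chr6:88205495-88207032, plus strand), stood at 4.07, 1.88 and 5.92 CPM against 83.8, 74.1 and 154 CPM. Hgf, hepatocyte growth factor, stood at 2.90, 5.45 and 4.40 CPM in the control and at 113, 58.1 and 231 CPM in the cDKO. Every cDKO library was above every control library for these 3 genes. Vcam1, a cell adhesion molecule, stood at 18, 28.9 and 39.3 CPM against 473, 208 and 746 CPM, and S100a6, a calcium-binding protein, at 8.13, 12.8 and 12.3 CPM against 346, 193 and 534 CPM. Both lie on chromosome 3, where most called genes were lower. The milk protein gene Csn2 was the least even, at 41.5, 7.41 and 88.3 CPM in the cDKO, and was no longer called without control replicate 1 or 3 (edgeR adjusted p = 0.0517 and 0.0556). In 8 of the 10, all but Slc24a3 and Oaf, cDKO replicate 2 was the lowest and replicate 3 the highest of the cDKO libraries.

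The 10 genes that fell most by the same rule were Elane, Phlda3, Actn1, Ifitm3, Igf2r, Tnfsf13, Tnfsfm13, Pkdcc, Psrc1 and Mefv. Tnfsf13 and Tnfsfm13 share 1 interval and hence identical reads, so they count as 1 measurement. Elane, the neutrophil elastase gene (chr10:79888118-79888216, plus strand), was read at 1570, 1549 and 1342 CPM in the control and at 169, 27.2 and 15.3 CPM in the cDKO. Its log2 change of -4.41 ± 0.74 SE (edgeR adjusted p = 0.00507) was the largest fall among the 10. Actn1, which encodes the actin crosslinker alpha-actinin, stood at 187, 216 and 213 CPM against 55.2, 10.9 and 8.55 CPM. Pkdcc, a secreted tyrosine kinase gene, was the most even, with 53.2, 57.1 and 55.1 CPM against 10.3, 6.88 and 9.20 CPM and a log2 change of -2.64 ± 0.18 SE. In Elane, Actn1, Ifitm3 and Igf2r the cDKO libraries were widely spread, but none reached a control level. Ifitm3 and Igf2r, an interferon-induced membrane protein and the receptor that clears IGF2, were no longer called when any control replicate was left out, with edgeR adjusted p of 0.0518 to 0.0580 and 0.0785 to 0.0853.

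Genes of stem and progenitor cells were mostly higher in the cDKO or not called. Of 23 tested, 9 rose (39.1%) and 2 fell, where 6.72% and 6.64% of all tested genes did. The members of this and the later lists were chosen with earlier results of these data known. Their shares beside those of all genes are therefore descriptions and no test of enrichment. The median log2 change was 0.21 against 0.01 over all genes. The number that rose was 8 to 11 when any library was left out, and 7 with at least 10 reads required in every library. Kit, a member given above, was lower in each cDKO library but was not called (log2 change -0.83, edgeR adjusted p = 0.0516). Hoxa9, which the virus also delivers, was read at its own 3′UTR (chr6:52223097-52224243, minus strand) at 2801, 2599 and 2446 CPM in the control and at 4592, 5044 and 6543 CPM in the cDKO (log2 change 1.06 ± 0.13 SE, edgeR adjusted p = 0.00126). Whether any viral transcript ends in that interval was not tested. The summed level of the list was 7525 to 7740 CPM in the control and 10252 to 12808 CPM in the cDKO, in which Hoxa9 was a large part. Runx1, a transcription factor required for definitive blood stem cells and named after its values were seen, fell from 195, 223 and 205 CPM to 111, 114 and 101 CPM (log2 change -0.92 ± 0.10 SE, edgeR adjusted p = 5.22e-04). Prom1, the membrane glycoprotein CD133, fell too, at 16.3, 6.39 and 6.52 CPM against 1.598, 0.529 and 0 CPM, and its call was lost without control replicate 1 (edgeR adjusted p = 0.0760). The stem cell surface marker Cd34 was not called, at 13.6, 20.3 and 15.0 CPM against 22.6, 13.9 and 32.2 CPM.

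Neutrophil granule genes were lower in the cDKO. Of 15 tested, 9 fell (60.0%) and 1 rose, with a median log2 change of -1.05, and 9 or 10 fell when any library was left out, where 6.64% of all tested genes fell. With at least 10 reads required in every library 5 fell, since some members passed the filter through the control alone. Prtn3, the granule protease proteinase 3, was the most abundant named member, at 2988, 3015 and 2899 CPM in the control and 902, 604 and 332 CPM in the cDKO (log2 change -2.26 ± 0.29 SE, edgeR adjusted p = 0.00133). Mmp8, neutrophil collagenase, stood at 22.3, 41.2 and 30.3 CPM against 0.457, 0.353 and 0.219 CPM, and S100a8, a subunit of calprotectin, at 25.4, 24.8 and 19.4 CPM against 0.457, 0 and 0 CPM. S100a8 and its partner S100a9 lie on chromosome 3, whose tested genes had a median log2 change of -0.51. Their own changes, -7.15 ± 0.58 and -4.44 ± 0.79 SE, were larger, and 7 granule genes fell with chromosome 3 left out. The member that rose was Cebpe, a transcription factor of granulocyte maturation, at 5.81, 9.02 and 9.10 CPM against 42.5, 36.4 and 18.2 CPM (log2 change 2.03 ± 0.33 SE, edgeR adjusted p = 0.00468), named after its values were seen. Mpo, the myeloperoxidase of the earliest granules, stood at 487, 541 and 502 CPM in the control and at 192, 11.5 and 1.75 CPM in the cDKO. All cDKO libraries were below all control libraries, but the cDKO spread kept it from being called (log2 change -2.92, edgeR adjusted p = 0.101), and it was called without cDKO replicate 1 (edgeR adjusted p = 7.98e-04). The summed granule reads were 10557 to 10877 CPM in the control and 3622 to 5013 CPM in the cDKO.

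**Figure D1:**
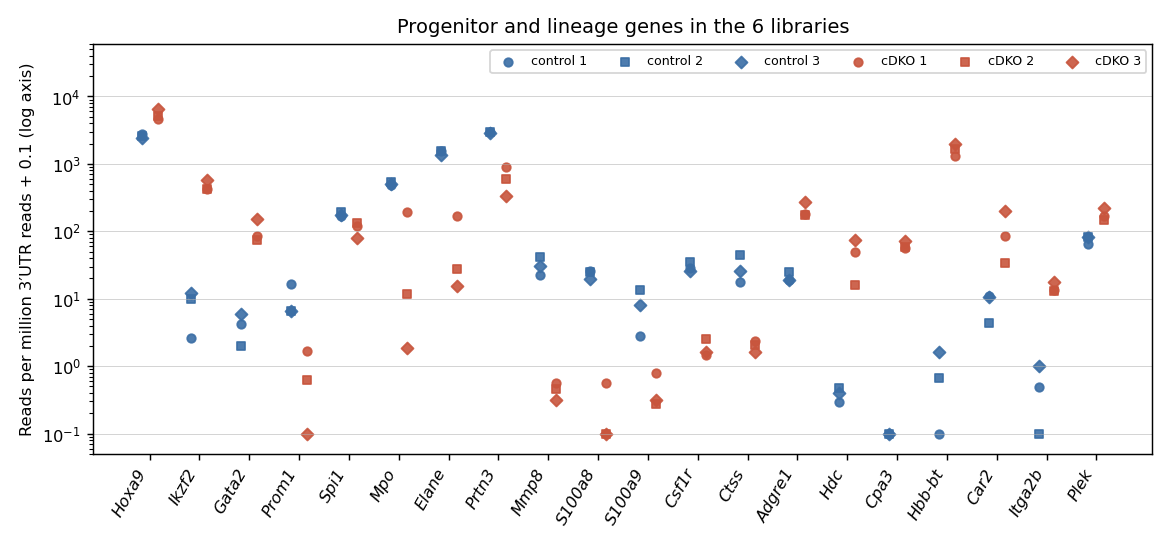
CPM of 3′UTR reads, plus 0.1 and on a log axis, of 20 progenitor and lineage genes in the 3 control (blue) and 3 cDKO (red) libraries, with circles, squares and diamonds for replicates 1, 2 and 3. Granule genes from Mpo to S100a9 lie lower in the cDKO, with Elane at 15.3 to 169 CPM against 1342 to 1570 CPM, whereas Hdc, Cpa3, Hbb-bt and Itga2b lie higher.

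Monocyte and dendritic cell genes were called in both directions, more often lower. Of 17 tested, 7 fell (41.2%) and 2 rose, with a median log2 change of -1.003, where 6.64% of all tested genes fell. The number that fell was 5 to 8 when any library was left out, 6 without chromosome 3 and 4 with at least 10 reads required in every library. F13a1 fell most, from 191, 253 and 178 CPM in the control to 0.228, 0.176 and 0 CPM in the cDKO (log2 change -10.3 ± 0.34 SE, edgeR adjusted p = 1.70e-06). So few cDKO reads leave the size of its change uncertain. Csf1r, the receptor for macrophage colony-stimulating factor, stood at 28.5, 34.6 and 25.9 CPM in the control and at 1.37, 2.47 and 1.53 CPM in the cDKO (log2 change -3.98 ± 0.29 SE, edgeR adjusted p = 9.62e-05). Ctss, the lysosomal protease cathepsin S, which lies on chromosome 3, stood at 17.4, 44.3 and 25.9 CPM against 2.28, 1.94 and 1.53 CPM. Adgre1, which encodes the macrophage antigen F4/80, rose from 18.6, 24.8 and 19.0 CPM to 181, 174 and 274 CPM (log2 change 3.35 ± 0.21 SE, edgeR adjusted p = 3.80e-05). The other that rose, Tlr4, the receptor for bacterial lipopolysaccharide, was named after its values were seen and lost its call without any control replicate or cDKO replicate 1 (edgeR adjusted p = 0.0535 to 0.0981). Irf8, a transcription factor of monocytes and dendritic cells also named after its values were seen, fell from 141, 190 and 133 CPM to 57.5, 58.1 and 49.97 CPM (log2 change -1.47 ± 0.16 SE, edgeR adjusted p = 4.34e-04). So a lineage factor and the macrophage growth factor receptor fell while a macrophage surface antigen rose. Ccr2, the receptor that draws monocytes out of the marrow, was lower in each cDKO library, at 328, 137 and 703 CPM against 944 to 1094 CPM, but was not called (edgeR adjusted p = 0.0704). Spi1, the transcription factor PU.1 of both lineages, stood at 171, 191 and 177 CPM against 119, 135 and 80.4 CPM. It fell in the comparison of all 6 libraries (log2 change -0.67, edgeR adjusted p = 0.0371), and the call was lost without any control replicate or cDKO replicate 1 (edgeR adjusted p = 0.0909 to 0.150).

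Some mast cell, erythroid and megakaryocyte genes were higher in the cDKO and none was called lower, but these counts depend on which members could be tested. Members with almost no control reads passed the filter through the cDKO libraries, where they are high. Of 8 mast cell and basophil genes tested, 3 rose (37.5%) and none fell, where 6.72% and 6.64% of all tested genes did. Cpa3, mast cell carboxypeptidase (chr3:20215616-20215804, minus strand), had no read in the control and 56.8, 57.7 and 72.1 CPM in the cDKO, at least 353-fold higher over pooled reads, with 3 counts over the control group as the floor. Hdc, which makes histamine, stood at 0.194, 0.376 and 0.303 CPM against 48.9, 15.7 and 75.2 CPM. Their list summed to 64.9 to 78.4 CPM in the control and 192 to 254 CPM in the cDKO. Cpa3 is on chromosome 3 as well, so it rose on a chromosome where lower calls predominated. None of the 3 would be tested with a filter of 10 reads in each library, since the control held almost none.

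Of 4 erythroid genes tested, 3 rose, where 6.72% of all tested genes did. With at least 10 reads required in every library 1 rose, as did 1 without chromosome 3, where Car2 lies. Hbb-bt, an adult beta-globin, was read at 0, 0.564 and 1.52 CPM in the control and 1300, 1646 and 1981 CPM in the cDKO. Car2, carbonic anhydrase 2, stood at 10.8, 4.32 and 10.6 CPM against 84.0, 33.5 and 202 CPM (log2 change 3.62 ± 0.62 SE, edgeR adjusted p = 0.00550). The erythroid transcription factor gene Tal1 overlapped between the groups, at 4.45, 1.69 and 7.58 CPM against 34, 22.4 and 6.79 CPM, and lost its call under 8 alternatives (edgeR adjusted p = 0.0534 to 0.165). Alpha-globin did not match the beta-globin level: Hba-a2 had 5.94, 0.353 and 3.73 CPM in the cDKO and no read in the control, and was too low for the test. Tfrc, the transferrin receptor that every dividing cell uses for iron, was not called, at 294, 297 and 290 CPM against 323, 269 and 276 CPM.

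Of 9 megakaryocyte genes tested, 4 rose (44.4%), where 6.72% of all tested genes did. When any library was left out 4 rose, against 2 with at least 10 reads required in every library. Itga2b, the integrin subunit CD41, stood at 0.387, 0 and 0.910 CPM in the control and 13.5, 12.7 and 17.5 CPM in the cDKO (log2 change 4.93 ± 0.58 SE, edgeR adjusted p = 8.35e-04). Plek, the platelet protein pleckstrin, stood at 65.6, 81.4 and 81.8 CPM against 170, 146 and 219 CPM, and F2rl2, the thrombin receptor PAR3, at 29.6, 33.1 and 23.4 CPM against 84.7, 59.3 and 162 CPM. All 3 rose with no overlap. In the eosinophil list, Prg3, a granule proteoglycan, was the called gene of 2 tested, at 0, 0.188 and 0 CPM against 2.05, 2.12 and 1.97 CPM, and was lost without control replicate 1 or 3 (edgeR adjusted p = 0.0653 and 0.0705). Outside blood, 3 of 4 tested genes rose, against the same 6.72% of all genes, and 2 rose with at least 10 reads required in every library. Pdgfrb passed the filter through the cDKO libraries alone, so this share depends on which members could be tested. Acta2, smooth muscle actin, rose from 24.6 to 27.3 CPM to 66.9 to 124 CPM, Pdgfrb was read in the cDKO alone at 3.88 to 6.57 CPM, and Afp stood at 1.88 to 3.64 CPM against 6.16 to 8.55 CPM. Afp lost its call under 9 alternatives (edgeR adjusted p = 0.0513 to 0.170). Alb, Epcam, Cdh5 and Pdgfra had no read in any of the 6 libraries.

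Receptors for cytokines and chemokines were called in both directions, 4 higher and 7 lower of 23 tested (17.4% and 30.4%, against 6.72% and 6.64% of all genes). Il2ra, the alpha chain of the interleukin 2 receptor, stood at 0.774, 0 and 0 CPM in the control and 40.6, 31.2 and 95.1 CPM in the cDKO (log2 change 7.75 ± 0.77 SE, edgeR adjusted p = 3.51e-04). Its partner chain Il2rg rose from 75.4 to 98.9 CPM to 165 to 279 CPM. Csf2rb, the beta chain shared by the receptors for GM-CSF and for the interleukin 3 in the medium, was named after its values were seen and rose from 341, 363 and 373 CPM to 635, 589 and 1023 CPM (log2 change 1.07 ± 0.18 SE, edgeR adjusted p = 0.00550). Il6ra, the receptor for the interleukin 6 in the medium, lies on chromosome 3 and stood at 53.4, 69.3 and 64.3 CPM against 14.2, 5.47 and 1.75 CPM (log2 change -3.13 ± 0.48 SE, edgeR adjusted p = 0.00329). The number that fell dropped from 7 to 1 without control replicate 1, 2 or 3 and to 2 without cDKO replicate 1, whereas 3 to 6 rose when any library was left out. With at least 10 reads required in every library, 3 rose and 6 fell. Il2ra, nearly absent from the control, passed the filter through the cDKO libraries, where it is high.

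Targets of p53 were lower in the cDKO more often than the background of 6.64%. Of 23 tested, 9 fell (39.1%), 1 rose, and the median log2 change was -0.52. Phlda3, a p53-induced inhibitor of AKT, stood at 31.4, 31.4 and 25.3 CPM in the control and 3.20, 1.76 and 3.94 CPM in the cDKO (log2 change -3.31 ± 0.29 SE, edgeR adjusted p = 1.95e-04). Tnfrsf10b, the TRAIL death receptor, stood at 24.4, 27.1 and 30.6 CPM against 2.28, 6.88 and 7.89 CPM, and Gdf15, a stress cytokine, at 4.55 to 5.83 CPM against 0.228 to 0.438 CPM. Perp, a membrane protein of cell junctions and apoptosis, was the member that rose, from at most 0.581 CPM to 21.5, 26.5 and 9.42 CPM. The list summed to 1521 to 1616 CPM in the control and 808 to 962 CPM in the cDKO, and 6 to 12 members fell when any library was left out.

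The amino acid response genes controlled by the transcription factor ATF4 were higher more often than the background of 6.72%: of 27 tested, 7 rose (25.9%) and 1 fell. Psat1, an enzyme of serine synthesis, rose evenly, from 224, 228 and 259 CPM to 476, 498.7 and 560 CPM (log2 change 1.13 ± 0.10 SE, edgeR adjusted p = 1.90e-04). Vldlr, a lipoprotein receptor, was among them with the largest change, at 0, 0.752 and 2.88 CPM against 159, 74.6 and 290 CPM, and Nupr1, a stress-induced chromatin protein, stood at 12.0 to 15.9 CPM against 34.4 to 43.6 CPM. Cebpb, a transcription factor that ATF4 shares with the myeloid lineage, fell from 140 to 155 CPM to 54.4 to 81.7 CPM. Without control replicate 2 or 3, 4 members rose rather than 7.

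Genes for the enzymes that tail RNA 3′ ends were examined beside Tut4 and Tut7. Of 11 terminal nucleotidyltransferases and poly(A) polymerases tested, 3 rose (27.3%) and 2 fell (18.2%), against 6.72% and 6.64% of all genes. The 2 that fell were Tut4 and Tut7 themselves. Tent5a, a cytoplasmic poly(A) polymerase named after its values were seen, rose from 731, 767 and 765 CPM to 1056, 1041 and 978 CPM (log2 change 0.46 ± 0.08 SE, edgeR adjusted p = 0.00614). Trnt1, which adds CCA to tRNAs, stood at 33.9, 30.4 and 37.5 CPM against 55.0, 52.8 and 56.1 CPM (log2 change 0.70 ± 0.13 SE, edgeR adjusted p = 0.00880), but its interval overlaps that of Crbn on the opposite strand, so the source of its reads is uncertain. Tent4b, a noncanonical poly(A) polymerase, stood at 108, 92.6 and 87.7 CPM against 116, 160 and 137 CPM (edgeR adjusted p = 0.0459), and its call was lost under 8 alternatives (edgeR adjusted p = 0.0506 to 0.189). Trnt1 also lost its call without control replicate 2 (edgeR adjusted p = 0.0576), and 1 of the 11 rose without that library. Of 67 mRNA decay genes tested, 1 rose, the decapping helicase gene Ddx6, and 4 fell (5.97%). Ddx6, named after its values were seen, stood at 328, 356 and 332 CPM against 444, 494 and 470 CPM, and lost its call without control replicate 3 (edgeR adjusted p = 0.0565). Tob1 and Btg2, adaptors that bring the CCR4-NOT deadenylase to mRNAs, were among them, Tob1 at 3.57 to 5.01 CPM against 0.913 to 1.10 CPM and Btg2 at 6.52 to 15.0 CPM against 2.29 to 3.65 CPM, and neither was called without control replicate 1 or 2. The other 2, Smg5 and Exosc9, lie on chromosome 3, and Exosc9 overlaps Ccna2 on the opposite strand. None, or 1, of the 67 fell without a control replicate or cDKO replicate 1.

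Growth and housekeeping lists were close to the background or below it. None of 33 DNA replication initiation genes and none of 32 ribosome biogenesis genes was called. Of 76 ribosomal protein genes tested, none rose and 4 fell (5.26%), with a median log2 change of 0.04, and none fell when a control replicate was left out. Of 77 oxidative phosphorylation genes, 1 rose (Cox7a2l) and 3 fell. Ndufc1, Ndufb5 and Atp5pb, the 3 that fell, are subunits of complex I and ATP synthase and lie on chromosome 3, as do the 2 of 37 proteasome subunits that fell, Psmd4 and Psmb4. All 4 of 54 splicing factors that fell lie there too, with Mbnl1, a regulator of alternative splicing, at 1174, 1276 and 1215 CPM against 611, 620 and 584 CPM. Of the 483 tested genes on chromosome 3, 185 fell and 18 rose. Chromosome 1, for comparison, had 44 higher and 44 lower of 583 tested. The counts again moved with single libraries, with 10 oxidative phosphorylation genes lower without cDKO replicate 2, and 1 or 2 splicing factors lower without a control replicate.

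**Figure D2:**
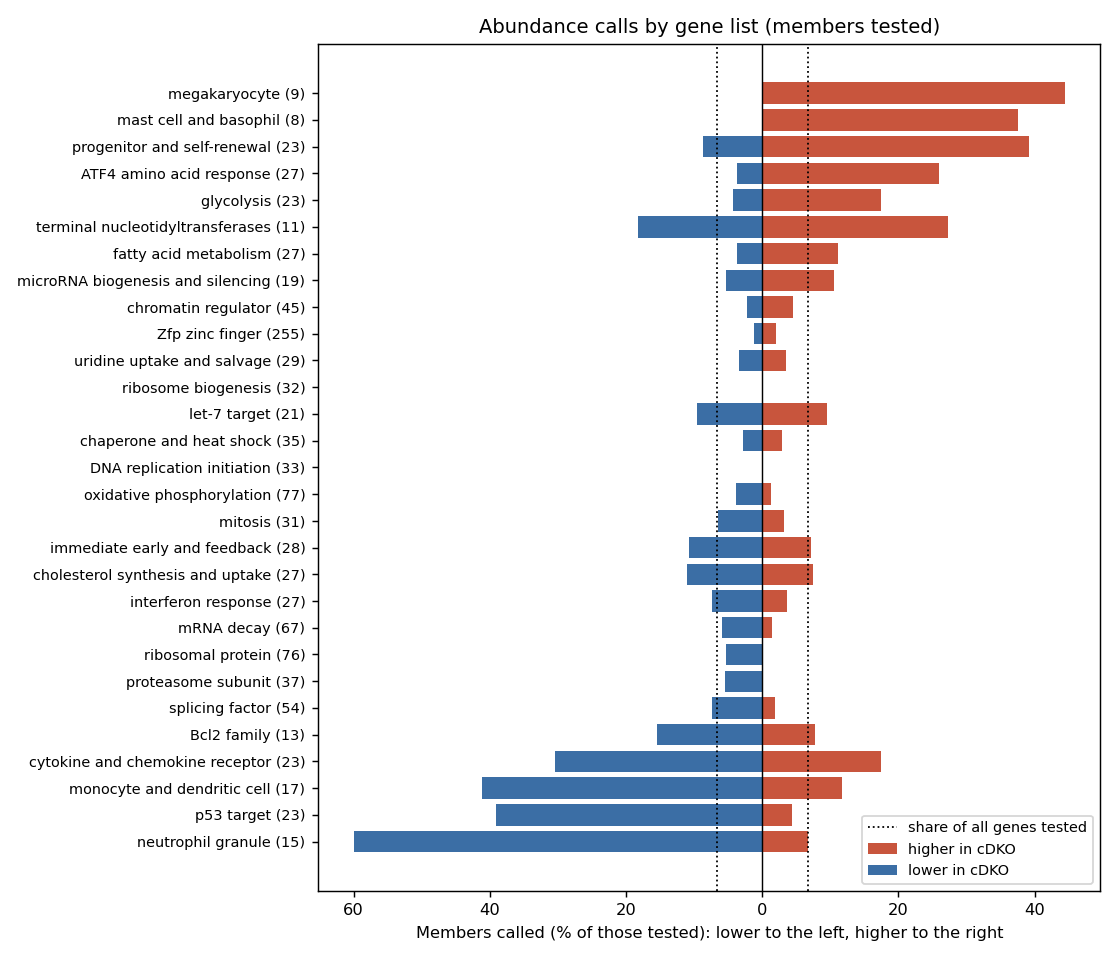
Share of tested members called higher (red, to the right) or lower (blue, to the left) in the cDKO, in percent, for each gene list with its number of members tested, and dotted lines at the share of all 10186 genes called (6.72% higher, 6.64% lower). Among others, the megakaryocyte, mast cell, progenitor and ATF4 bars reach past the line to the right, and the neutrophil granule, p53 and monocyte bars reach past it to the left. The terminal nucleotidyltransferase and cytokine receptor bars reach past it on both sides. The lists were chosen with earlier results of these data known.

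Labelling at chase onset was lower in all 3 cDKO libraries. The conversion rate, the percentage of covered T positions read as C, was 1.62, 1.67 and 1.62% in control replicates 1, 2 and 3 and 0.821, 0.845 and 0.542% in the cDKO, a mean of 1.64% ± 0.0261 against 0.736% ± 0.169 (SD, n = 3; exact permutation p = 0.1, the smallest that 3 against 3 allows; adjusted p = 0.1 over 3 measures). The share of reads with a conversion was 27.4, 27.9 and 27.4% against 15.4, 15.8 and 10.8%, which is 1.97 times lower in the mean (exact permutation p = 0.1, adjusted p = 0.1). Conversions per converted read were 1.20, 1.21 and 1.20 against 1.09, 1.09 and 1.04, a ratio of 1.12 (exact permutation p = 0.1, adjusted p = 0.1). By these counts, most of the 2.23-fold difference in rate lay in the number of reads that carried any conversion, and a smaller part in the conversions of each such read. This split is approximate, since 490 of 8304 genes had fewer conversions than converted reads at 0 min. The T positions covered per read were close, 20.2 to 20.3 in the control and 20.3 to 20.7 in the cDKO.

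**Figure D3:**
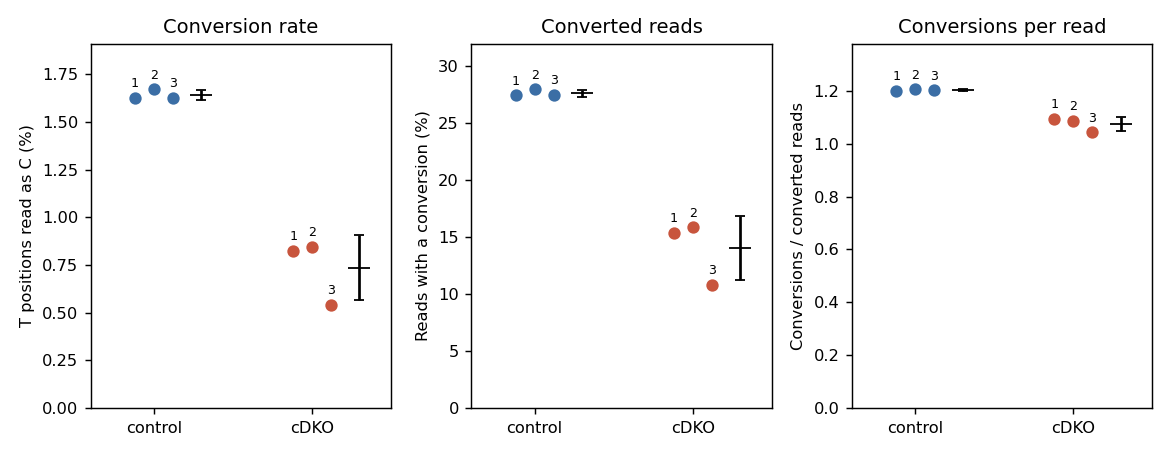
Conversion rate (percent of T positions), share of reads with a conversion (percent) and conversions per converted read of the 3 control (blue) and 3 cDKO (red) libraries, numbered by replicate, with the mean and SD beside each group in black. The cDKO libraries lie below the control libraries in each panel, and cDKO replicate 3 is the lowest, at 0.542%, 10.8% and 1.04.

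The fall in labelling ran through nearly all genes. Of 8304 genes with enough coverage, 7341 (88.4%) had a lower rate in every cDKO library than in any control library, 963 overlapped, and none had every cDKO rate above every control rate. In the mean, 22 genes had a higher rate in the cDKO. Each gene was therefore compared with the change of its libraries: the relative labelling is the log2 ratio of the gene's rates, cDKO over control, minus that of the whole libraries. The whole-library value was -1.18, so a gene with equal rates in both genotypes has a positive relative value by construction. Labelled more therefore means above the library-wide ratio, and need not mean a higher rate in the cDKO. Relative labelling was narrow, with 5th, 25th, 75th and 95th percentiles of -0.56, -0.16, 0.17 and 0.51. At an adjusted p under 0.05 from edgeR, 25 genes were labelled more (0.301%) and 3 less (0.0361%) than the library-wide ratio gives, and 689 had an unadjusted p under 0.05. Like those of abundance, these calls moved with the libraries in the fit: 13, 16 and 17 genes were called without control replicate 1, 2 or 3, each of them among the 28, and 43 without cDKO replicate 2.

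Cxcr4, the receptor for the marrow chemokine CXCL12 (chr1:128588199-128588842, minus strand), had the largest positive relative labelling. Its rate was 1.86, 1.72 and 2.01% in the control and 2.27, 2.51 and 1.95% in the cDKO, so the rates of the groups overlapped (relative log2 1.44 ± 0.10 SE, edgeR adjusted p = 1.19e-12). With its 540 min rate subtracted, the relative value was 0.36 (edgeR adjusted p = 0.637). Its abundance was slightly lower in the cDKO, 119 to 136 CPM against 157 to 171 CPM (log2 change -0.36, edgeR adjusted p = 0.0412). Rpl14, a protein of the large ribosomal subunit, had rates of 2.64, 2.12 and 2.41% against 2.33, 2.92 and 2.08% (relative log2 1.20 ± 0.08 SE, edgeR adjusted p = 1.50e-12). Tyrobp, the signalling adaptor DAP12 of myeloid receptors, had 3.39, 3.44 and 3.50% against 3.65, 3.398 and 3.403% (relative log2 1.18 ± 0.10 SE, edgeR adjusted p = 3.56e-10). In these 3 genes the rates of the 2 genotypes overlapped, which sets them apart from the 7341.

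Alyref2, an mRNA export factor, and Timm17a, a subunit of the mitochondrial import channel, followed. Alyref2 had rates of 3.51, 3.73 and 3.65% in the control and 3.81, 3.03 and 2.79% in the cDKO (relative log2 0.99 ± 0.23 SE, edgeR adjusted p = 0.0371). Timm17a had 1.77, 1.604 and 1.99% against 1.66, 1.70 and 1.34% (relative log2 0.97 ± 0.14 SE, edgeR adjusted p = 2.39e-05). Snx18, a sorting nexin of endosomes, had 2.05, 2.28 and 2.35% against 1.77, 2.33 and 1.151% (relative log2 0.80 ± 0.16 SE, edgeR adjusted p = 0.00626), with cDKO replicate 3 again lowest, as in the whole libraries. The other 19 had relative log2 values from 0.28, in Rps29, to 0.77, in Rps21. Among them were the granule protease genes Elane (0.51) and Prtn3 (0.37), whose reads fell steeply. Elane's labelling rested on 70 to 739 reads per cDKO library. Of the 20 called genes that were named and refitted, 9 stayed called whichever library was left out, namely Cxcr4, Rpl14, Tyrobp, Timm17a, Rps21, Rpl26, Rps27rt, Rplp1 and B2m. Alyref2, Arid3a, Elane, Frg1, Gda, Prtn3, Snx18 and 5730408K05Rik each lost the call without control replicate 1 or 2, Psmc1 and Sdf2l1 without control replicate 1, and Ccr2 without cDKO replicate 1.

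**Figure D4:**
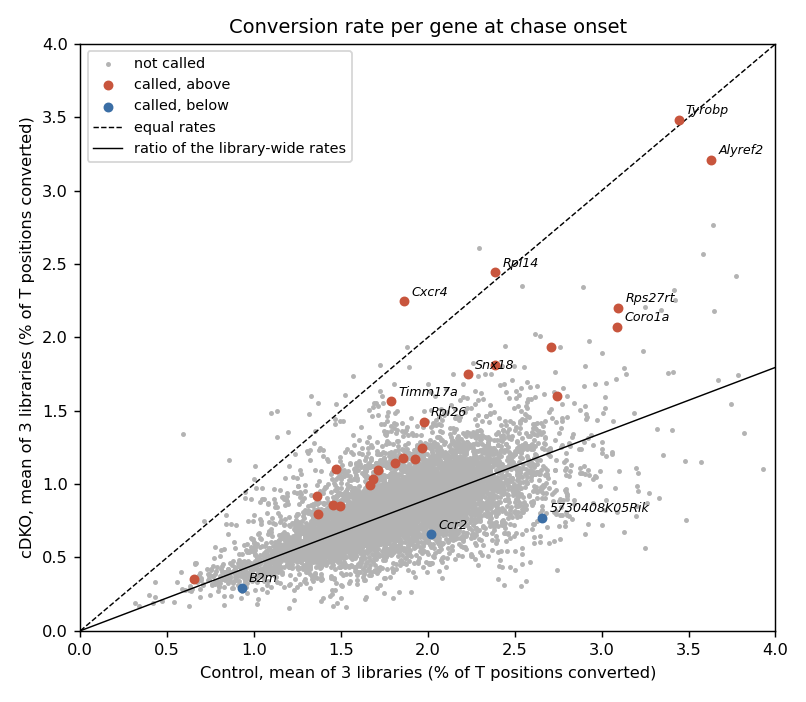
Conversion rate per gene at 0 min, mean of the 3 control libraries against mean of the 3 cDKO libraries, in percent of T positions, with genes called above (red) or below (blue) the library-wide ratio (solid line) and the line of equal rates (dashed). Most genes gather around the solid line, while Cxcr4, at 1.86% and 2.25%, lies above the line of equal rates.

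Ribosomal protein genes were frequent among the genes labelled more than the library-wide ratio gives, although the list as a whole was not shifted. Of 70 tested, 7 were labelled more, where 0.301% of all genes were, and none less. Rpl14, Rps21, Rpl26 and Rplp1 had the largest values of the 7. The median relative labelling of the 70 was 0.00, with 35 of 70 above 0. Rpl26 had rates of 1.87, 2.08 and 1.97% in the control and 1.505, 1.57 and 1.21% in the cDKO, and Rplp1, an acidic stalk protein, 1.39, 1.29 and 1.39% against 0.936, 1.04 and 0.774%. Rps27rt, a retrogene copy of Rps27, was called too, and reads from near-identical copies can be misplaced between such genes. The intervals of these ribosomal genes were short, with 12 T positions in Rpl26 and 72 in Rpl14.

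Genes labelled more had shorter 3′UTR intervals in general. Their median was 43 T positions, against 310 over all tested genes, and 13 of 25 (52.0%) had under 50 T positions, against 719 of 8304 (8.66%). The band under 50 T positions as a whole was not shifted, with a median relative labelling of -0.01 for its 719 genes. In the band from 50 to below 200 T positions, 8 of 2289 genes were labelled more and 2 less. From 200 to below 500 T positions, 1 of 2523 was labelled more. At 500 or more, 3 of 2773 were labelled more and 1 less.

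The called genes were then followed to 540 min of chase, in libraries that took no part in the calls. Over all tested genes, the median rate at 540 min was 7.71% of the 0 min rate in the control and 12.6% in the cDKO. In the 25 genes labelled more, these medians were 69.2% and 79.5%. More than 50% was kept by 19 of the 25 in the control and by 23 in the cDKO, against 398 and 682 of all 8304 genes. Rpl14, for example, had 2.99% ± 0.222 at 540 min in the control and 2.81% ± 0.186 in the cDKO (SD, n = 3), above its control rate at 0 min. Tyrobp had 2.90% ± 0.0890 and 3.05% ± 0.253. In most of the 25, conversions thus stayed while those of most genes were lost, and their source was not tested. In the control, Cxcr4, Snx18 and Gda were not among these, keeping 7.86%, 3.75% and 5.26%. Arid3a and Gda were the exceptions among the 25 in the cDKO, keeping 39.9% and 7.31%. Gda, guanine deaminase, was chosen after its values were seen, and had rates of 1.71, 1.63 and 1.66% against 1.09, 1.14 and 0.753% at 0 min (relative log2 0.41 ± 0.08 SE, edgeR adjusted p = 0.00626), with 1188 T positions. When each gene's 540 min rate was subtracted from its 0 min rate, none of the 25 remained called as labelled more, Cxcr4, Rpl14 and Gda included.

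**Figure D5:**
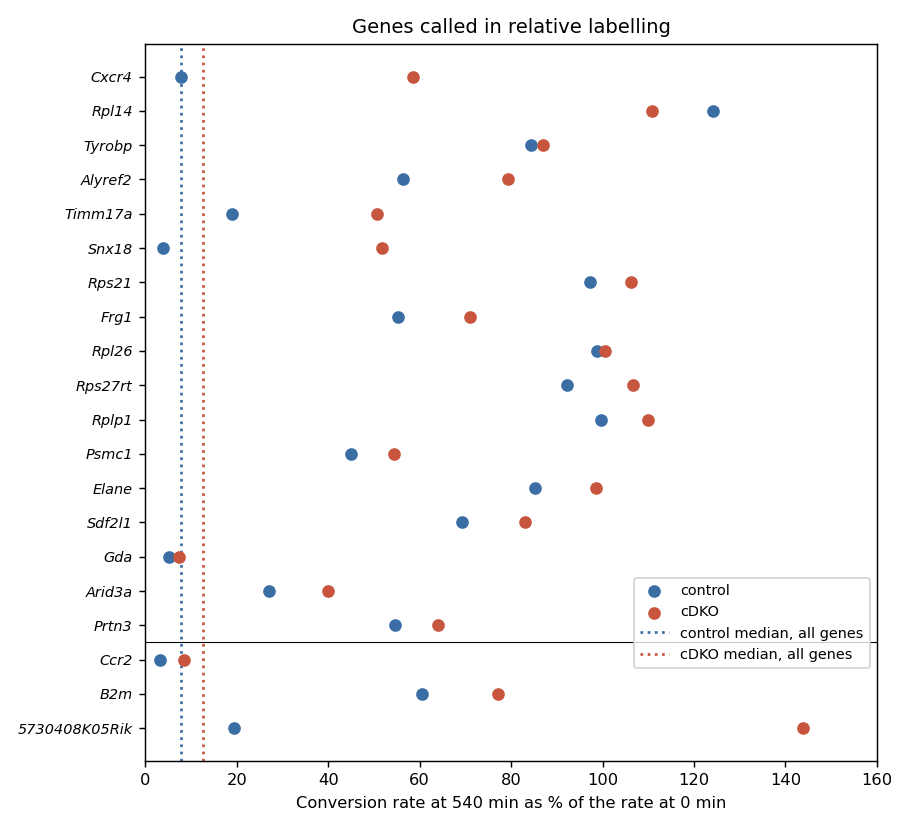
Conversion rate at 540 min as a percentage of the rate at 0 min for the 20 called genes that were named and refitted, with those labelled more above the line and those labelled less below it, control in blue and cDKO in red, and dotted lines at the median of all tested genes (7.71% and 12.6%). Most points lie far to the right of the dotted lines, and Cxcr4 and Snx18 do so in the cDKO alone.

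The 3 genes labelled less were 5730408K05Rik, B2m and Ccr2. 5730408K05Rik, an unnamed transcript whose interval holds Mir5136 on the same strand, had rates of 2.70, 2.60 and 2.67% in the control and 0.994, 0.710 and 0.609% in the cDKO (relative log2 -0.66 ± 0.14 SE, edgeR adjusted p = 0.0155). Ccr2 had 2.02, 2.06 and 1.99% against 0.648, 0.791 and 0.537% (relative log2 -0.44 ± 0.08 SE, edgeR adjusted p = 0.00145), and kept 3.25% and 8.35% of its rate at 540 min. Of the 28 called genes, Ccr2 and Gda were those that kept under 10% in both genotypes.

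B2m, the light chain of MHC class I, depended on how conversions were counted. Its rate was 0.919, 0.953 and 0.915% in the control and 0.331, 0.357 and 0.197% in the cDKO (relative log2 -0.51 ± 0.06 SE, edgeR adjusted p = 1.86e-06). Counted by converted reads, 37.3 to 40.2% of its control reads and 26.3 to 29.2% of its cDKO reads carried a conversion, and the relative value turned to 0.52 (edgeR adjusted p = 4.14e-06). The files give B2m 0.443 to 0.476 conversions per converted read in the control and 0.148 to 0.253 in the cDKO, so most of its converted reads had no conversion counted at a T position. In all, 490 of 8304 genes (5.90%) had fewer conversions than converted reads. A direction for B2m cannot be given from these files.

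Labelling was also compared with how fast genes turn over. Genes were divided into 4 classes of 1928 by the share of the 60 min rate that the control kept at 540 min, with class medians of 3.29, 6.81, 12.3 and 29.0%. In the control, the fastest class had 1.17 ± 0.00643 times the library-wide rate (SD, n = 3), the next classes 1.11 ± 0.00338 and 1.06 ± 0.00338 times, and the slowest 0.854 ± 0.00310 times. In the cDKO these were 1.16 ± 0.0298, 1.11 ± 0.0303, 1.05 ± 0.00849 and 0.869 ± 0.0257 times. Genes that kept a smaller share were thus labelled more than those that kept a larger one in both genotypes, and the order of classes was the same. A low rate with conversions that last through the chase gives a large share by arithmetic. Part of this order can therefore be built in, and it is no measure of lifetime alone. The difference between genotypes was -0.01 on the log2 scale in the fastest class and 0.02 in the slowest, which is within the spread of the cDKO libraries. Of the 25 genes labelled more, 23 lay in the slowest class, which runs up to 120% kept. The classes use the control 540 min rates, so this is no separate result from the 540 min values above.

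Labelling differed little between genes of changed and unchanged abundance. The 461 tested genes that were higher in the cDKO had a summed rate of 1.01 ± 0.00626 times that of the library in the control and 0.987 ± 0.0136 times in the cDKO (SD, n = 3). The 496 that were lower had 1.04, 1.04 and 1.05 times in the control and 1.10, 1.10 and 1.11 times in the cDKO, so the groups did not overlap, by 0.08 on the log2 scale. This difference was 0.08 without the granule genes, 0.12 without chromosome 3 and 0.04 without the genes called in labelling. Genes not called in abundance were at 0.992 and 0.994 times. Of the 25 genes labelled more, 10 (40.0%) were also lower in abundance, Cxcr4, Tyrobp, Snx18, Rps21, Rps27rt, Elane, S100a11, Dpm3, Arid3a and Prtn3, where 5.97% of tested genes were. None was higher. Chromosome 3 genes, though lower in abundance, had a median relative labelling of 0.00.

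The medians of relative labelling of the gene lists were small beside the library-wide change. Of the lists with at least 15 genes tested, p53 targets had the lowest median relative labelling, -0.21, with 4 of 17 above 0, and cholesterol genes were at 0.10, with 20 of 26 above 0. Genes for uridine uptake and salvage, the route by which 4SU enters RNA, had a median of -0.17, with 10 of 26 above 0. In abundance, 1 of 29 such genes tested rose and 1 fell (3.45% each), against 6.72% and 6.64% of all genes. Nt5c3, a pyrimidine nucleotidase, stood at 68.3, 57.3 and 67.7 CPM in the control and 116, 125 and 166 CPM in the cDKO (log2 change 1.09 ± 0.15 SE, edgeR adjusted p = 0.00236). Slc29a3, a nucleoside transporter of lysosomes and mitochondria, stood at 44.7, 44.9 and 33.8 CPM against 23.3, 25.1 and 20.8 CPM (log2 change -0.82 ± 0.18 SE, edgeR adjusted p = 0.0154), and was no longer called without control replicate 1 or 2 or cDKO replicate 1 (edgeR adjusted p = 0.0536 to 0.0843). Their part in the library-wide difference was not tested. Apart from the ribosomal list, no list held more than 2 genes called in labelling.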

How the data were processed

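SLAM-seq 3′ end libraries of mouse preleukemic cells were aligned by the authors with SlamDunk, which maps 3′ end reads, masks variant positions and counts T-to-C conversions (mm10; the submitters' processing notes name GRCm38). The deposited tables hold, for 39419 lines per library, whole-number read counts, converted reads, covered T positions and conversions for each 3′UTR interval. They also hold the authors' CPM and conversion rates as a fraction, which the authors computed and which were not used here. The variant-mask settings were not given in the sources used here.

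Accessions of 39096 lines (99.18%) were matched to gene symbols. Of 30432 distinct intervals, 29021 were kept as the longest of those overlapping on a strand, and counts were summed over 20867 genes. CPM here are scaled to the total of 3′UTR reads. Abundance was tested with edgeR 4.0.16 in R 4.3.3 (TMM, filterByExpr, quasi-likelihood) on the 6 libraries at 0 min. Relative labelling was tested likewise on conversions, with the log of covered T positions times the library-wide rate as offset, in genes with at least 500 covered T positions in each library and 30 conversions in all. Scripts were tested on simulated data. Library-wide measures had two-sided exact permutation tests. Genes were named as the 10 called genes with the largest change in each direction (abundance, at least 10 reads in every library; labelling, all called), up to 4 called members of each of 34 gene lists, the 6 most abundant, Tut4, Tut7 and cell type markers. The members and lists were chosen with earlier results of these data known. Alternatives were DESeq2 1.42.0, other scalings, filters, backgrounds and counting, a replicate block, and leaving out libraries or chromosome 3. The depth of 4380235 to 6592394 3′UTR reads makes 3 counts over the pooled libraries of a genotype equal to 0.176 CPM (control) and 0.205 CPM (cDKO). Such limits cover counting error only. Reads had no molecular identifiers. No sequence is printed, since the genome provided was of another build.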

Additional observations from a re-analysis of the deposited data

Results flagged for a closer look

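Of the 28 genes called in labelling at chase onset, 3 had a conversion rate at 540 min, in libraries outside the comparison, that was higher in every cDKO library than in any control library, and 13 had one that was lower. Cxcr4 stood at 0.145% ± 0.0164 in the control and 1.33% ± 0.0872 in the cDKO (SD, n = 3). Timm17a stood at 0.348% ± 0.0983 in the control and 0.794% ± 0.0722 in the cDKO. Snx18 stood at 0.0729% ± 0.0641 in the control and 0.924% ± 0.102 in the cDKO. Over all tested genes, the median rate at 540 min was 0.140% in the control and 0.101% in the cDKO, so these 3 ran against the median. No test of these rates across genes was run. The share of all tested genes whose groups separate in this way at 540 min was not counted. The counts of 3 and 13 of the 28 therefore have no background to be read against.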

How the results depend on the processing

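The 1360 genes called in abundance became 2192 with all 24 libraries in the fit and ranged from 633 to 2223 when a library was left out. The share called higher was 43.5% with upper quartile scaling, against 50.3%. Of 128 named called genes, 71 stayed past the threshold in every alternative run and none reversed. The 28 genes called in labelling became 7315 without the library-wide rate in the offset, by its construction, 4 with the 540 min rate subtracted, 8 with all overlapping lines summed and 18 with all 24 libraries, and ranged from 13 to 43 when a library was left out. The causes were not tested. Without the library-wide rate, the log2 values turned to -0.17 in Alyref2, -0.77 in Arid3a, -0.60 in Elane, -0.41 in Frg1, -0.73 in Gda, -0.76 in Prtn3, -0.64 in Psmc1, -0.47 in Rpl26, -0.57 in Rplp1, -0.41 in Rps21, -0.49 in Rps27rt, -0.66 in Sdf2l1, -0.34 in Snx18 and -0.19 in Timm17a. With the 540 min rate subtracted and conversions floored at 0, they turned to -0.16 in Alyref2, -0.87 in Elane, -1.22 in Rplp1, -0.52 in Rps21, -9.98 in Rps27rt, -0.23 in Sdf2l1 and -0.17 in Snx18. The 4 genes called there, Nup210, Rps27rt, Stub1 and 5730408K05Rik, were all lower, and Nup210 and Stub1 are named after their values were seen. In Rps27rt and 5730408K05Rik the pooled 540 min cDKO rates, 2.35% and 1.09%, were above each 0 min cDKO rate, so the floor sets those calls. By converted reads B2m turned to 0.52. The slowest against the fastest turnover class stood at 0.032 on the log2 scale and at -0.046 with classes from 180 min. Replicate numbers did not pair the libraries, with correlations of -0.05 to 0.06 between same-numbered ones, and a replicate block gave 1087 genes in abundance and 26 in labelling. The library-wide rate difference stayed between -1.30 and -0.98 on the log2 scale. Depth limits genes near 0.176 CPM in the control and 0.205 CPM in the cDKO, where counts allow no order, and 3 libraries per group limit every call.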

Other observations

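Of 27 cholesterol genes tested, 2 rose and 3 fell (7.41% and 11.1%, against 6.72% and 6.64% of all genes). Of those that fell, Fdps and Pmvk lie on chromosome 3, and 1 fell without that chromosome and without control replicate 1 or 2. Srebf2, the transcription factor of the pathway, stood at 154, 131 and 124 CPM in the control and 100, 61.6 and 75.2 CPM in the cDKO (log2 change -0.78 ± 0.17 SE, edgeR adjusted p = 0.0174), and was no longer called without control replicate 1 or 2 (edgeR adjusted p = 0.0896 and 0.0691). Cyp51, the lanosterol demethylase, was called higher but not without any control replicate or cDKO replicate 1, nor with the replicate block (edgeR adjusted p = 0.0577 to 0.106). Of 27 fatty acid genes, 3 rose (11.1%) and 1 fell, and 1 rose without any single control replicate and 6 without cDKO replicate 2, with the desaturase gene Scd2 at 368, 382 and 407 CPM against 589, 565 and 620 CPM. Of 23 glycolysis genes, 4 rose (17.4%) and 1 fell, and 1 rose without any single control replicate. The glucose transporter gene Slc2a3 stood at 5.81, 4.89 and 5.76 CPM against 25.1, 31.4 and 17.8 CPM. Hk3, the hexokinase of myeloid cells, stood at 146, 174 and 160 CPM against 2.74, 5.29 and 0 CPM (log2 change -5.79 ± 0.52 SE, edgeR adjusted p = 1.98e-04), and its interval overlaps Unc5a on the opposite strand.

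Genes of the let-7 and microRNA pathways were called at 2 higher and 2 lower of 21 let-7 targets (9.52% each). Of 19 microRNA genes, 2 were higher and 1 lower (10.5% and 5.26%). Over all tested genes, 6.72% were higher and 6.64% lower, which is the background for each list in this paragraph. Lin28a, which with TUT4 blocks let-7 maturation, stood at 20.3, 16.2 and 22.3 CPM against 32.2, 28.1 and 39.7 CPM, and lost its call under 5 alternatives (edgeR adjusted p = 0.0665 to 0.133). Ccnd2, a cyclin and let-7 target, stood at 644, 720 and 672 CPM against 1044, 942 and 821 CPM (edgeR adjusted p = 0.0164), and lost its call without any control replicate or cDKO replicate 1 (edgeR adjusted p = 0.0604 to 0.0920). Of 13 Bcl2 family genes, 1 rose and 2 fell. Pmaip1, the death promoter NOXA, stood at 79.6, 90.8 and 86.2 CPM against 40.4, 24.9 and 30.02 CPM (log2 change -1.42 ± 0.17 SE, edgeR adjusted p = 0.00104). Of 27 interferon genes, 1 rose and 2 fell, and of 28 immediate early genes, 2 rose and 3 fell, against none or 1 lower without a control replicate. Dusp6, a feedback phosphatase of ERK, was among them, at 127, 102 and 106 CPM against 68.9, 38.6 and 70.6 CPM, and was not called without any single control replicate. Of 45 chromatin regulators, 2 rose and 1 fell. Dnmt3a, a DNA methyltransferase, stood at 53.8, 52.4 and 58.2 CPM against 88.4, 76.8 and 99.9 CPM, and Tet2, which oxidises methylated DNA and lies on chromosome 3, at 87.9, 77.8 and 73.1 CPM against 46.3, 28.8 and 44.9 CPM. Of 255 Zfp genes, 5 rose and 3 fell (1.96% and 1.18%), against 6.72% and 6.64% of all genes, while 16 fell without cDKO replicate 2 and 1 without control replicate 2 or 3. Of 31 mitosis genes Mad2l1 rose and Ccna2 and Cenpe, both on chromosome 3, fell, and none of these calls held without any single control replicate (edgeR adjusted p = 0.0923 to 0.162), and of 35 chaperones 1 rose and 1 fell.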
